A study of Homo sapiens with 6 samples.

Results

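Aminoacyl-tRNA synthetases, the enzymes that join each amino acid to its tRNA, were followed in PANC-1 cells after knockdown of SHMT2. Members were the genes of the deposited table named by an amino acid letter, ARS and an optional 1 or 2, together with TARS3, EPRS1, FARSA, FARSB and the scaffold proteins AIMP1, AIMP2 and EEF1E1. The rule gave 41 of the 20036 genes in the table. By where the enzymes work, 19 were cytosolic synthetases, 17 were mitochondrial synthetases, 2 (GARS1 and KARS1) supply both compartments from a single gene, and 3 were scaffolds without charging activity. PANC-1 is an established human pancreatic cancer cell line. Cells of the knockdown group received a lentivirus that knocks down SHMT2, and cells of the control group received a null virus, with 3 RNA-seq libraries in each group, so both groups carried a virus. The sources used here do not give the knockdown sequence, the time after infection or whether a clone was taken. Libraries of a group are named replicate 1, 2 and 3, and no label says whether they were separate cultures, so p-values reflect how far these libraries differ, which can be technical.

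Each synthetase activates its amino acid with ATP and transfers it to the matching tRNA, which an elongation factor then carries to the ribosome. Cytosol and mitochondria run separate protein synthesis, and all mitochondrial synthetases are encoded in the nucleus and imported. In animal cells, a group of cytosolic synthetases is held together with AIMP1, AIMP2 and EEF1E1 in the multi-tRNA synthetase complex. Mitochondria lack a glutaminyl-tRNA synthetase and make that charged tRNA from glutamyl-tRNA with an amidotransferase. SHMT2, the targeted enzyme, interconverts serine and glycine in mitochondria and charges folate with a one-carbon unit.

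SHMT2 had 139, 56 and 101 counts in knockdown replicates 1, 2 and 3, against 2113, 2284 and 2417 in control replicates 1, 2 and 3. Levels for such comparisons are CPM, counts scaled to a common library total with TMM factors, which adjust for differences in library makeup. SHMT2 stood at 5.19 ± 1.74 CPM in knockdown and 146 ± 11.4 CPM in control libraries (SD, n = 3), and its log2 fold change was -4.80 (SE 0.23, edgeR adjusted p = 1.04e-05). Library totals ran from 16748432 to 19075734 counts in the knockdown group and from 15405884 to 16366452 in the control group. Knockdown replicate 2 and control replicate 1 stood apart from the other libraries of their groups. The chi-square of counts per gene was 75.2 and 76.8 between knockdown replicate 2 and the others, against 2.47 between those others, and 25.7 and 30.7 for control replicate 1, against 2.07. The mitochondrially encoded genes took 10.4% of counts in knockdown replicate 2, 4.72% in each of the other knockdown libraries, and 5.78% to 6.86% in control libraries. All 6 ductal cancer cell markers, KRT8, KRT18, KRT7, KRT19 and EPCAM among them, were tested, 2 were called higher and 1 lower, and KRT19 stood at 69.8 ± 12.9 CPM in knockdown and 0.152 ± 0.137 CPM in control libraries, where it was close to 0. Summed levels of marker lists in knockdown and control libraries were 0.183 to 0.696 and 0.127 to 0.401 CPM for 8 acinar genes (7 at 0 in all libraries), 43.2 to 49.3 and 80.7 to 94.6 CPM for 7 fibroblast genes (DCN, FAP and PDPN at 0), and 2.26 to 3.11 and 0.802 to 1.84 CPM for 7 immune genes (TYROBP and LYZ among those at 0). The 4 embryonic kidney markers summed to 26.3 to 38.4 CPM in knockdown and 19.0 to 20.5 CPM in control libraries, with LHX1 at 18.7 ± 2.38 and 2.91 ± 0.534 CPM. Their part in the results below was not tested.

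The synthetases did not move as a block. All 41 genes passed the filter on low counts, and 22 of them were called, with 6 higher and 16 lower in the knockdown libraries (edgeR quasi-likelihood test, Benjamini-Hochberg adjusted p below 0.05 over all tested genes). Called members were thus 53.7%, close to the 51.8% of all 12292 tested genes. By direction, 14.6% of members were higher and 39.0% lower, beside 26.7% and 25.1% of all tested genes. Values of the groups did not overlap for 24 members (58.5%), beside 61.4% of all tested genes. The median log2 fold change was -0.12 over the members and 0.00 over all tested genes. Single genes ranged from a fall by 1.10 on the log2 scale (LARS2) to a rise of 1.05 (EPRS1). Among the 22 called members, 16 were also called when any library was left out, 4 of them higher and 12 lower. Without knockdown replicate 2 and control replicate 1 together, 31 members were called, including all 22, with 11 higher and 20 lower, while 73.6% of all tested genes were called, 36.9% higher and 36.7% lower. Summed over the members, unscaled CPM (counts over the library total) came to 5859, 5272 and 5831 in knockdown replicates 1, 2 and 3 and 5636, 5390 and 5362 in control replicates 1, 2 and 3, so the groups overlapped. In bulk RNA, fewer cells carrying a transcript and less of it per cell cannot be told apart.

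**Figure D1:**
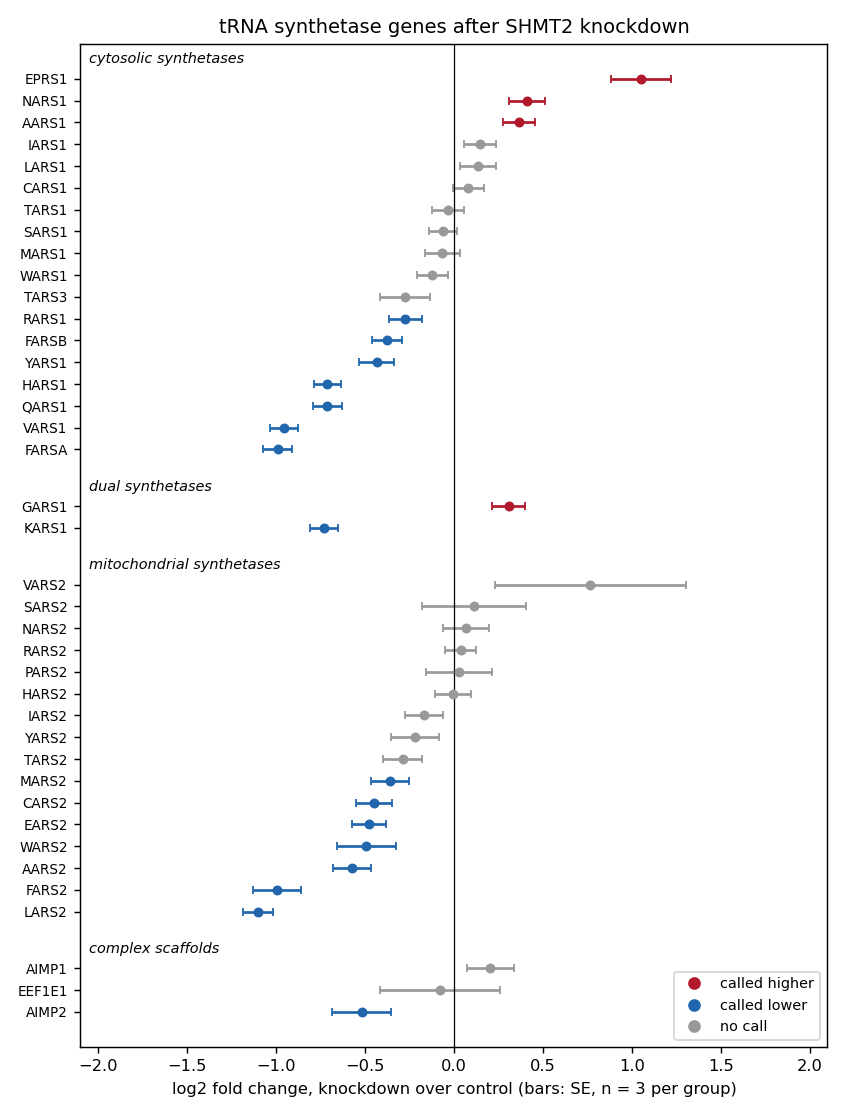
Log2 fold change of 39 of the 41 genes (knockdown over control, edgeR), with bars of 1 standard error and genes grouped by compartment. The outer values belong to EPRS1 (1.05) and LARS2 (-1.10), and called genes of both directions occur among cytosolic synthetases.

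Among the 8 synthetases of the multi-tRNA synthetase complex, 2 rose, 3 fell and 3 were not called, with a median log2 fold change of 0.03. In shares, 62.5% were called, 25% higher and 37.5% lower, beside 51.8%, 26.7% and 25.1% of all tested genes. EPRS1, the fused enzyme that charges glutamate and proline tRNAs (chromosome 1, 219968600 to 220046530, minus strand, as the table gives it), had 9082, 6999 and 8717 counts in knockdown replicates 1, 2 and 3, against 4407, 2658 and 2950 in control replicates 1, 2 and 3. Every knockdown library lay above every control library, and control replicate 1 was the highest of its group. EPRS1 averaged 443 ± 13.7 CPM in knockdown and 214 ± 55.2 CPM in control libraries (SD, n = 3), and its log2 fold change was 1.05 (SE 0.17, edgeR adjusted p = 0.0017). EPRS1 was also called with each library left out.

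KARS1 and QARS1, in the same complex, fell. KARS1, which charges lysine tRNAs in cytosol and mitochondria (chromosome 16), had 3922, 3391 and 3861 counts in knockdown replicates 1, 2 and 3, against 5026, 5032 and 5479 in control replicates 1, 2 and 3. Mean levels were 201 ± 6.16 CPM in knockdown and 333 ± 15.4 CPM in control libraries, a log2 fold change of -0.73 (SE 0.08, edgeR adjusted p = 0.000324). QARS1, the glutaminyl enzyme (chromosome 3), had 1761, 1570 and 1765 counts in knockdown replicates, against 2322, 2320 and 2351 in control replicates, and fell by 0.71 on the log2 scale (SE 0.08, edgeR adjusted p = 0.000378), or by 0.44 after a correction of fold changes for gene length and GC content. In both genes the groups did not overlap. RARS1, the arginyl enzyme, stood at 171 ± 7.12 CPM in knockdown and 207 ± 18.0 CPM in control libraries. Its log2 fold change of -0.27 (SE 0.09, edgeR adjusted p = 0.039) kept the call without control replicate 2 (adjusted p = 0.0471), but lost it when any other library was left out, with 0.0611 for control replicate 1, 0.0988 for control replicate 3, and 0.0755, 0.0537 and 0.122 for knockdown replicates 1, 2 and 3, and the length and GC correction gave -0.46. The remaining enzymes of the complex were not called. IARS1, for isoleucine, had a log2 fold change of 0.15 (393 ± 23.2 CPM in knockdown and 355 ± 24.5 CPM in control libraries), LARS1, for leucine, 0.13 (279 ± 13.3 and 254 ± 27.7 CPM), and MARS1, for methionine, -0.07 (324 ± 30.6 and 339 ± 17.3 CPM). LARS1 was called higher without control replicate 1 (edgeR adjusted p = 0.0488). Without both libraries that stood apart, IARS1 (0.25, edgeR adjusted p = 1.06e-10) and LARS1 (0.19, adjusted p = 4.68e-06) were called higher, and MARS1 was not called. The length and GC correction turned the signs of all 3, to -0.24 for IARS1, -0.33 for LARS1 and 0.13 for MARS1. MARS1 shares 12.4% of its exon bases with ARHGAP9 and DDIT3 on the opposite strand, and whether counting used strand is not given.

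The 3 scaffold genes had no common direction. AIMP1 had 1549, 1192 and 1420 counts in knockdown replicates 1, 2 and 3, against 1240, 900 and 882 in control replicates 1, 2 and 3. Levels of 74.4 ± 2.22 CPM in knockdown and 64.7 ± 11.8 CPM in control libraries overlapped and gave no call (log2 fold change 0.20, SE 0.13, edgeR adjusted p = 0.232). Without control replicate 1, its level was called higher at 0.36 (adjusted p = 0.0111), whereas the length and GC correction turned the sign, to -0.27. AIMP2 had 664, 855 and 725 counts in knockdown replicates, which is 33.0, 52.2 and 37.5 CPM, against 989, 842 and 905 counts in control replicates, which is 62.3, 56.3 and 57.3 CPM. Its log2 fold change was -0.52 (SE 0.17, edgeR adjusted p = 0.0324), or -0.28 after the length and GC correction. This call held without knockdown replicate 2, the knockdown library with the highest value (adjusted p = 0.00124), and was lost when any other library was left out, with 0.0744, 0.0684 and 0.0706 for control replicates 1, 2 and 3, and 0.107 and 0.104 for knockdown replicates 1 and 3. AIMP2 shares 28.9% of its exon bases with EIF2AK1 on the opposite strand. EEF1E1 had 303, 109 and 313 counts in knockdown replicates, against 150, 236 and 238 in control replicates, with the 2 libraries that stood apart as the lowest of their groups. At 12.6 ± 5.21 CPM in knockdown and 13.4 ± 3.47 CPM in control libraries, it was not called (edgeR adjusted p = 0.859). The sign of its log2 fold change of -0.08 depended on the scaling and on single libraries, as it was 0.02 with library totals alone, 0.05 and 0.01 when control replicate 2 or 3 was left out, and 0.21 without knockdown replicate 2.

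**Figure D2:**
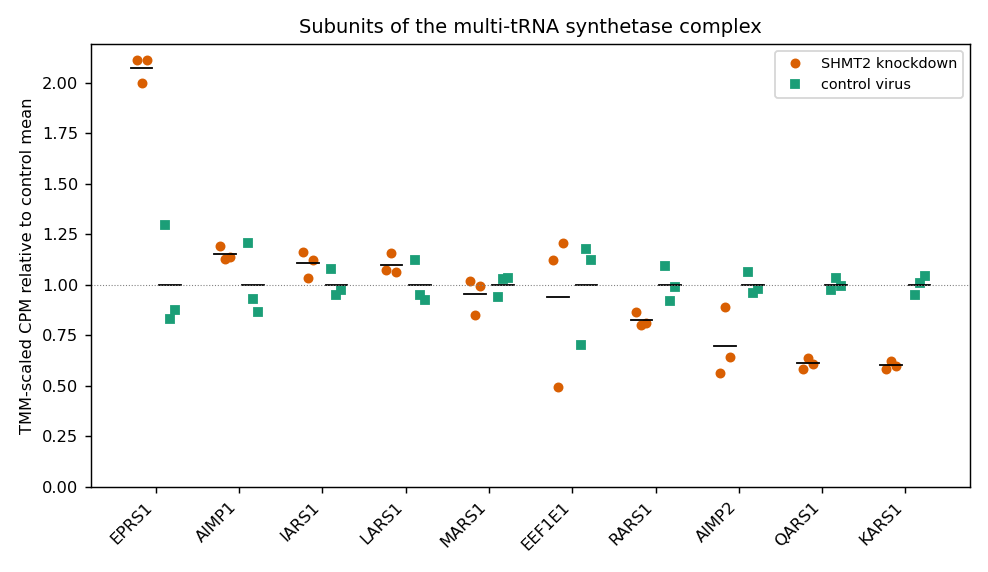
TMM-scaled CPM of 10 of the 11 genes of the multi-tRNA synthetase complex in every library, divided by the mean of the control libraries, with knockdown left of control and short lines for group means. EPRS1 lies higher in all knockdown libraries (mean of 207% of control), KARS1 and QARS1 lie lower (60.2% and 61.1%), and the groups overlap for AIMP1 and EEF1E1.

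Among the 12 cytosolic synthetases outside the complex, 2 rose and 5 fell, with a median of -0.20. In shares, 58.3% were called, 16.7% higher and 41.7% lower, beside 51.8%, 26.7% and 25.1% of all tested genes. FARSA and FARSB encode the alpha and beta subunits of cytosolic phenylalanyl-tRNA synthetase, and both fell. FARSA (chromosome 19, 12922479 to 12934037, minus strand) had 866, 688 and 810 counts in knockdown replicates 1, 2 and 3, against 1282, 1317 and 1323 in control replicates 1, 2 and 3. It stood at 42.3 ± 0.604 CPM in knockdown and 84.1 ± 3.66 CPM in control libraries (SD, n = 3), and its log2 fold change was -0.99 (SE 0.08, edgeR adjusted p = 0.0001). FARSB stood at 128 ± 5.69 CPM in knockdown and 166 ± 9.68 CPM in control libraries and fell by 0.38 (SE 0.09, edgeR adjusted p = 0.00785), so the levels of the subunits' transcripts changed by unequal amounts. After the length and GC correction the values were -0.63 for FARSA and -0.62 for FARSB.

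VARS1, the valyl enzyme (chromosome 6, 31777518 to 31795752, minus strand), had 2733, 2360 and 2830 counts in knockdown replicates 1, 2 and 3, against 4297, 4237 and 4318 in control replicates 1, 2 and 3. With 142 ± 5.65 CPM in knockdown and 276 ± 6.60 CPM in control libraries, it changed by -0.95 (SE 0.08, edgeR adjusted p = 9.46e-05), or by -0.60 after the length and GC correction. HARS1, the histidyl enzyme (chromosome 5), had 1811, 1447 and 1738 counts in knockdown replicates, against 2262, 2244 and 2325 in control replicates, and fell by 0.71 (SE 0.08, edgeR adjusted p = 0.000288). YARS1, the tyrosyl enzyme, fell by 0.44 (239 ± 18.0 CPM in knockdown and 324 ± 23.8 CPM in control libraries, edgeR adjusted p = 0.00732), or by 0.26 after the correction. These falls held with each library left out.

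AARS1 and NARS1 were the cytosolic genes outside the complex that rose. AARS1, the alanyl enzyme, stood at 277 ± 14.3 CPM in knockdown and 215 ± 13.7 CPM in control libraries, a log2 fold change of 0.37 (SE 0.09, edgeR adjusted p = 0.0103), and was called with each library left out. NARS1, the asparaginyl enzyme, stood at 337 ± 3.0 CPM in knockdown and 254 ± 29.5 CPM in control libraries, a log2 fold change of 0.41 (SE 0.10, edgeR adjusted p = 0.0106). Leaving out control replicate 2 (adjusted p = 0.0572) or 3 (0.0539) removed the call. WARS1, a tryptophanyl enzyme known to be induced by interferon gamma, had 1801, 1580 and 1755 counts in knockdown replicates 1, 2 and 3, against 1490, 1517 and 1673 in control replicates 1, 2 and 3. The groups overlapped at 92.3 ± 3.72 CPM in knockdown and 100 ± 6.10 CPM in control libraries (log2 fold change -0.12, edgeR adjusted p = 0.275). Without both libraries that stood apart it was called lower, at -0.20 (adjusted p = 0.000305), and the length and GC correction gave 0.03. SARS1 (-0.06), TARS1 (-0.03), CARS1 (0.08) and TARS3 (-0.27), the enzymes for serine, threonine, cysteine and again threonine, were not called (0.13, -0.15, 0.15 and -0.32 after the length and GC correction), though TARS3 was called lower without knockdown replicate 2 (adjusted p = 0.042).

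GARS1, which charges glycine tRNAs in both compartments, had 9122, 8316 and 8379 counts in knockdown replicates 1, 2 and 3, against 6347, 5574 and 5624 in control replicates 1, 2 and 3. Levels were 465 ± 38.4 CPM in knockdown and 376 ± 22.0 CPM in control libraries, without overlap, and the log2 fold change was 0.31 (SE 0.09, edgeR adjusted p = 0.0279). Leaving out control replicate 2 (adjusted p = 0.103), control replicate 3 (0.119) or knockdown replicate 1 (0.0723) removed the call, and the length and GC correction gave 0.15. Glycine and serine are the product and substrate of SHMT2. The serine enzymes showed no call in either compartment, with SARS1 at 168 ± 2.56 CPM in knockdown and 175 ± 9.34 CPM in control libraries and mitochondrial SARS2 at 4.07 ± 1.61 and 3.73 ± 0.559 CPM.

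AARS1, NARS1 and GARS1 share a stretch of letters near their transcription starts. The 8-letter word TGATGNAA, the core of the C/EBP-ATF response element through which ATF4 acts on amino acid response genes, was searched on both strands from 250 bases before to 50 bases after each RefSeq start (GRCh38.p14). Of the 41 members, 33 matched the promoter table, and 8 of these (24.2%) held the word, beside 4.46% of 27305 genes. The 8 were 3 of 4 matched members that were called higher, 0 of 13 called lower and 5 of 16 without a call. These counts depend on the libraries used, as NARS1 and GARS1 lost their calls when some single libraries were left out. Without both libraries that stood apart, IARS1 was called higher (0.25, edgeR adjusted p = 1.06e-10) and YARS2 lower (-0.18, adjusted p = 0.0288). The following 30-base stretches are written 5′ to 3′ on the strand of the gene, with the word in capitals, which reads TTNCATCA where it lies on the other strand. They show how the same word recurs in genes that rose and in genes without a call.
AARS1 (rose; chr16:70289675-70289704, minus strand): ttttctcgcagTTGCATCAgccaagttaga
NARS1 (rose; chr18:57621804-57621833, minus strand): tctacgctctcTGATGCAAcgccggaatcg
GARS1 (rose; chr7:30594834-30594863, plus strand): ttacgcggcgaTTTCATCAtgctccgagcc
IARS1 (no call; chr9:92293692-92293721, minus strand): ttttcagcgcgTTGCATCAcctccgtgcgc
CARS1 (no call; chr11:3057407-3057436, minus strand): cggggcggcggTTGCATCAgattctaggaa
MARS1 (no call; chr12:57488053-57488082, plus strand): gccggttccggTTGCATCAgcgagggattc
TARS1 (no call; chr5:33440956-33440985, plus strand): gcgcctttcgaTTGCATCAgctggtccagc
YARS2 (no call; chr12:32756076-32756105, minus strand): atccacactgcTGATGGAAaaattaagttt

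In AARS1 the word began 187 bases before the start, and in NARS1 at 14 bases after it. In GARS1 the word began 33 bases before the RefSeq start at 30594878. The window of another GARS1 start, at 30594735, did not hold it. The word lay across the start itself in MARS1 and across the start at 3057423 in CARS1. The window of another CARS1 start, at 3040984, lacked the word. By compartment, 6 of 14 matched cytosolic genes, 1 of 2 dual genes, 1 of 14 mitochondrial genes and 0 of 3 scaffolds held it. EPRS1, which showed the largest rise among the members, had none in this window. The core motif of NRF1, a regulator of nuclear genes for mitochondria, was searched in the same window on both strands and occurred in 7 of 33 matched members (21.2%), beside 6.98% of all genes. These were IARS2, MARS2 and PARS2 among mitochondrial genes, FARSB, SARS1 and TARS1 among cytosolic genes, and the scaffold AIMP2, of which MARS2, FARSB and AIMP2 were called lower and the others were not called. In FARSB (called lower; chr2:222656081-222656110, minus strand) this motif, in capitals, lay across the start, as tcagctcgctGCGCAGGCGCagtgagttcg. The 8 members without a matched entry included AARS2, LARS1, TARS3, VARS1, VARS2 and YARS1. For both motifs, the share over all genes was not matched for the base composition of the promoters. A word match describes the sequence and not binding, and binding was not measured.

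Among the 17 mitochondrial synthetases, 7 fell, 1 rose and 9 were not called, with a median log2 fold change of -0.22. In shares, 47.1% were called, 5.88% higher and 41.2% lower, beside 51.8%, 26.7% and 25.1% of all tested genes. LARS2, the mitochondrial leucyl enzyme (chromosome 3, 45388561 to 45554726, plus strand), had 646, 572 and 650 counts in knockdown replicates 1, 2 and 3, against 1119, 1111 and 1123 in control replicates 1, 2 and 3. Neither group spread far, and LARS2 stood at 33.6 ± 1.42 CPM in knockdown and 71.9 ± 2.03 CPM in control libraries (SD, n = 3), a fall by 1.10 on the log2 scale (SE 0.08, edgeR adjusted p = 7.3e-05). FARS2, the single-chain mitochondrial phenylalanyl enzyme (chromosome 6), had 143, 106 and 153 counts in knockdown replicates, against 206, 215 and 247 in control replicates. At 7.17 ± 0.726 CPM in knockdown and 14.3 ± 1.33 CPM in control libraries, it fell by 0.996 on the log2 scale (SE 0.14, edgeR adjusted p = 0.000855). AARS2, for alanine, had 327, 242 and 338 counts in knockdown replicates, against 393, 371 and 359 in control replicates, and fell by 0.57 (SE 0.11, edgeR adjusted p = 0.00357), or by 0.29 after the length and GC correction.

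EARS2, which charges glutamate and supplies the substrate for mitochondrial glutaminyl-tRNA, stood at 57.8 ± 3.89 CPM in knockdown and 80.4 ± 5.78 CPM in control libraries, a log2 fold change of -0.48 (edgeR adjusted p = 0.00479). CARS2, for cysteine, fell by 0.45 (28.1 ± 1.91 CPM in knockdown and 38.4 ± 2.63 CPM in control libraries, adjusted p = 0.00777). WARS2, for tryptophan, at 5.52 ± 0.752 CPM in knockdown and 7.76 ± 0.912 CPM in control libraries (log2 fold change -0.49, edgeR adjusted p = 0.0376), and MARS2, for methionine, at 20.2 ± 1.43 and 26.0 ± 1.57 CPM (-0.36, adjusted p = 0.022), were less stable. WARS2 lost its call when control replicate 2 (adjusted p = 0.0865), control replicate 3 (0.135) or knockdown replicate 1 (0.123) was left out, and MARS2 without the same libraries (0.0866, 0.0731 and 0.0535).

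Of the 9 genes without a call, TARS2, for threonine, came closest at -0.29 (adjusted p = 0.0567), with groups that did not overlap, and was called without control replicate 1 (0.047). It stood at -0.20 with library totals alone (adjusted p = 0.22) and at -0.01 after the length and GC correction. YARS2 (-0.22), IARS2 (-0.17), HARS2 (-0.01), PARS2 (0.03), RARS2 (0.04), NARS2 (0.07) and SARS2 (0.11) gave smaller changes. After the length and GC correction these 7 ranged from -0.38 (RARS2) to 0.48 (SARS2), with the sign turned for HARS2, RARS2 and NARS2. VARS2 had 17, 12 and 12 counts in knockdown replicates, against 13, 5 and 2 in control replicates, and its log2 fold change of 0.77 (SE 0.54, adjusted p = 0.262) was called without control replicate 1 (1.65, adjusted p = 0.0298). VARS2 shares 22.0% of its exon bases with GTF2H4 and SARS2 46.2% with ENSG00000269547, each on the same strand, so both levels are uncertain.

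The medians of the compartments depended on scaling and on gene length. The cytosolic median of -0.07 was 0.02 with library totals alone and -0.24 after the length and GC correction, while the mitochondrial median of -0.22 was -0.13 and -0.26 under the same settings, beside a median over all tested genes of 0.00, 0.09 and 0.00. In unscaled CPM, the mitochondrial genes summed to 746, 644 and 756 in knockdown replicates 1, 2 and 3, against 761, 774 and 758 in control replicates 1, 2 and 3, and no values overlapped. The cytosolic genes summed to 4297, 3800 and 4272 in knockdown replicates, against 4029, 3800 and 3801 in control replicates, and the groups overlapped through knockdown replicate 2.

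The balance between compartments was then compared for each amino acid. For 18 pairs of a cytosolic and a mitochondrial gene, the log2 ratio of their CPM (with 0.5 CPM added to each) was compared between groups. EPRS1 enters with EARS2 and PARS2, and FARS2 with FARSA and FARSB, so the pairs are not independent. The ratios of the groups did not overlap in 14 pairs, in 10 of which the ratio was higher in knockdown libraries and in 4 lower. Values of the groups also did not overlap for 61.4% of all tested single genes. No such share was computed for other gene pairs, so the count is not shown to be particular to the synthetases. With 3 libraries a group, a 2-sided exact permutation test cannot go below p = 0.1, which these 14 reached (0.129 adjusted over the 18 pairs), so no pair could pass.

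The ratio of EPRS1 to EARS2 was 2.93 ± 0.0652 in knockdown and 1.38 ± 0.434 in control libraries on the log2 scale, a difference of 1.55 made by a called rise and a called fall. LARS1 to LARS2 stood at 3.04 ± 0.0434 in knockdown and 1.81 ± 0.177 in control libraries, a difference of 1.23 in which LARS2 was called and LARS1 was not. AARS1 to AARS2 stood at 4.06 ± 0.0674 in knockdown and 3.13 ± 0.128 in control libraries, and here again the cytosolic gene rose and the mitochondrial gene fell. The opposite order was seen for histidine, where HARS1 to HARS2 stood at 0.996 ± 0.127 in knockdown and 1.69 ± 0.0576 in control libraries. HARS1 and HARS2 are divergent neighbours whose RefSeq starts on chromosome 5, at 140691370 and 140691455, lie 85 bases apart, and HARS1 fell while HARS2 had a log2 fold change of -0.01. HARS2 shares 11.7% of its exon bases with HARS1 on the opposite strand. VARS1 to VARS2 differed by -1.43, on the few counts of VARS2. FARSA and FARSB fell as FARS2 did, and the ratio differed by -0.03 for FARSA and FARS2, whose groups overlapped, and by 0.58 for FARSB and FARS2.

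**Figure D3:**
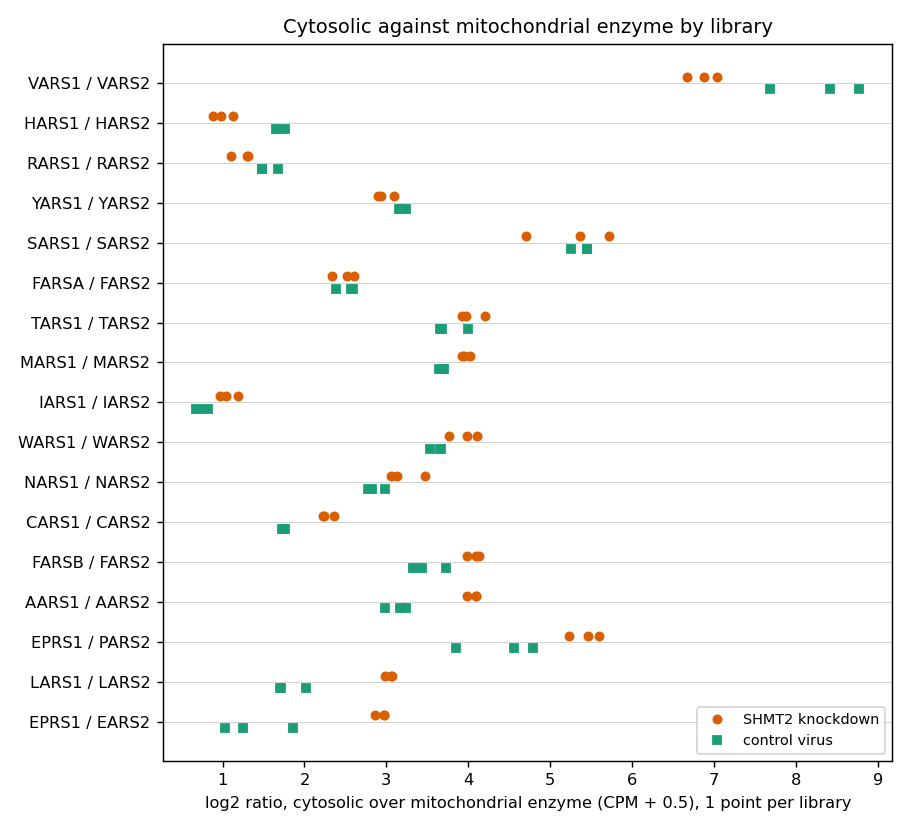
Log2 ratio of cytosolic to mitochondrial TMM-scaled CPM for 17 of the 18 pairs, with a point for each library and the groups in separate colours. The groups do not overlap in 14 pairs, 10 with the knockdown points at higher ratios (EPRS1 to EARS2, LARS1 to LARS2 and AARS1 to AARS2 among them) and 4 with them at lower ratios (VARS, HARS, RARS and YARS).

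Levels of different genes were compared in FPKM, which divides by gene length, and so depend on the length used. The deposited length was over 1.5 times the exon bases of GENCODE 29 for 10 of the 41 genes, with 17366 against 4152 bases for GARS1, 22418 against 7401 for IARS1 and 14155 against 7853 for HARS1. Cytosolic synthetases had a median of 24.9 FPKM in knockdown and 31.0 FPKM in control libraries, and mitochondrial synthetases a median of 4.21 and 4.46 FPKM. With exon bases as length the medians were 39.2 and 38.3 FPKM for cytosolic and 6.91 and 8.37 FPKM for mitochondrial synthetases, so the cytosolic median was the higher one with either length, while the order of the groups for the cytosolic median turned. The cytosolic gene had the higher FPKM in 16 of 18 pairs in control libraries with deposited lengths and in 17 with exon bases. HARS1 lay at 0.524 times the level of HARS2 in knockdown and 0.856 times in control libraries with deposited lengths, but at 0.949 and 1.55 times with exon bases. IARS1 lay at 1.17 times the level of IARS2 in knockdown and 0.945 times in control libraries with exon bases, against 0.31 times in control libraries with deposited lengths. The median ratio over pairs was 10.1 in knockdown and 6.70 in control libraries with deposited lengths, and 7.62 and 5.64 with exon bases.

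The order of single genes also moved with the length. TARS1 ranked 1 of the 41 in both groups with deposited lengths, at 111 ± 4.89 FPKM in knockdown and 107 ± 10.02 FPKM in control libraries. With exon bases GARS1 ranked 1 in both, at 115 ± 4.71 FPKM in knockdown and 88.0 ± 5.68 FPKM in control libraries, and TARS1 ranked 4 and 2, at 82.6 ± 3.64 and 79.9 ± 7.46 FPKM. EPRS1, at 85.8 ± 6.30 FPKM in knockdown and 39.1 ± 10.3 FPKM in control libraries, ranked 2 in the knockdown group and 9 in the control group, or 3 and 14 with exon bases. In knockdown libraries EPRS1 and NARS1 (84.9 ± 4.41 FPKM) did not differ beyond their spread. KARS1, at 50.9 ± 1.04 FPKM in knockdown and 79.9 ± 3.23 FPKM in control libraries, ranked 5 and 2, or 8 and 3 with exon bases. VARS1, at 24.9 ± 1.24 and 45.5 ± 1.08 FPKM, ranked 13 and 7, or 17 and 12. With either length, VARS2 was the lowest gene, at 0.117 ± 0.0189 FPKM in knockdown and 0.0642 ± 0.0538 FPKM in control libraries with deposited lengths, below SARS2 at 1.34 ± 0.469 and 1.17 ± 0.168 FPKM, and IARS2 (47.0 ± 7.76 and 49.7 ± 1.34 FPKM) was the highest mitochondrial synthetase in both groups.

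**Figure D4:**
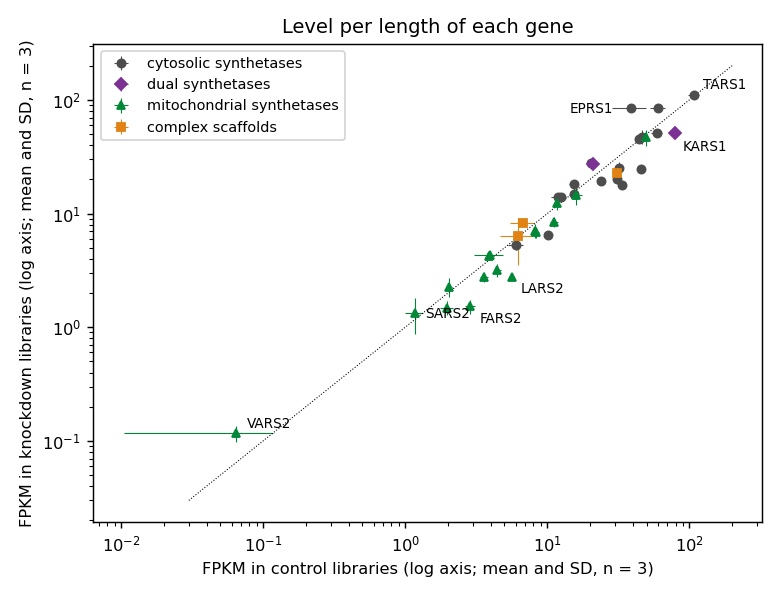
Mean FPKM of 39 of the 41 genes in knockdown libraries (vertical, log axis) and in control libraries (horizontal, log axis), with bars of 1 SD (n = 3) and a dotted line of equal level. EPRS1 lies well above the line and KARS1, LARS2 and FARS2 below it, and mitochondrial genes other than IARS2 lie under most cytosolic genes.

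Because log2 fold changes of adjacent genes can run together, each member was set beside the 10 tested genes on either side of it (TARS3 had 10 in all). Around EPRS1, 17 of 20 neighbours had a positive log2 fold change, with a median of 0.63. NARS1 also lay among positive neighbours (17 of 20, median 0.31). AARS1, in contrast, rose among neighbours with a median of -0.26, of which 5 of 20 were positive. IARS2, whose start lies 47627 bases from that of EPRS1 and whose neighbours had a median of 0.72, was itself at -0.17 (188 ± 23.7 CPM in knockdown and 212 ± 4.45 CPM in control libraries), without overlap of the groups and without a call (adjusted p = 0.22).

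QARS1 and FARSA fell among falling neighbours, with medians of -0.62 and -0.60. LARS2, on the same chromosome as QARS1, lay among neighbours with a median of -0.46, less than its own -1.10. KARS1 fell where 15 of 20 neighbours were positive (median 0.30), and AARS2 where the median was 0.39. HARS1 (0.11), FARS2 (-0.12) and VARS1 (-0.24) lay among neighbours that differed less from 0. Of all 41 members, 22 had the sign of their neighbours' median.

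**Figure D5:**
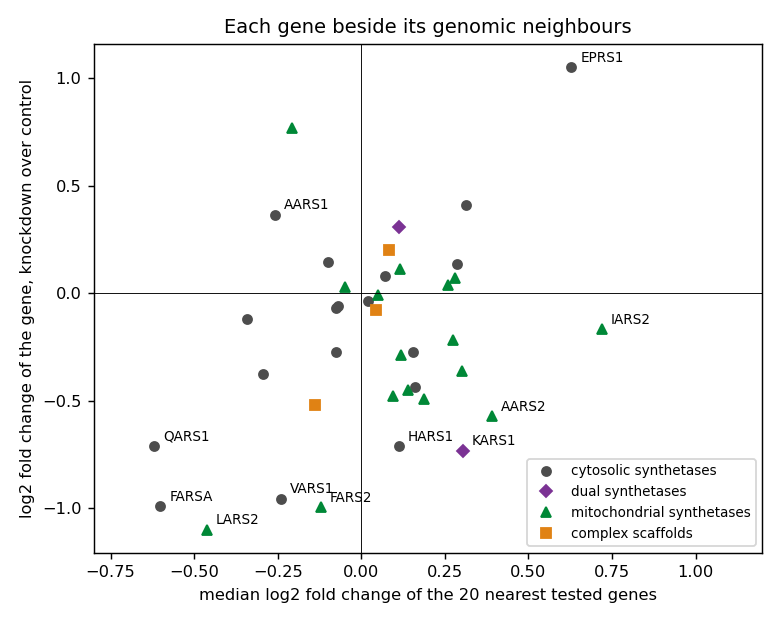
Log2 fold change of 39 of the 41 members (vertical) against the median of the 20 tested genes nearest to it (horizontal), both knockdown over control. EPRS1 lies at a positive neighbour median of 0.63, QARS1 and FARSA at -0.62 and -0.60, and KARS1 and AARS2 fell where neighbours were positive.

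Genes that act beside the synthetases were counted from separate lists. Beside each count stand the shares of all tested genes, 26.7% called higher and 25.1% called lower. Of 14 tested mitochondrial charging accessories, 8 fell and 0 rose in edgeR, with a median of -0.32. The count of higher genes was also 0 at an unadjusted p below 0.05 and in DESeq2, and 1 by limma on log2(FPKM + 1). TUFM, the mitochondrial elongation factor that delivers charged tRNA, stood at 139 ± 18.8 CPM in knockdown and 252 ± 39.3 CPM in control libraries (log2 fold change -0.86, adjusted p = 0.0023). GATB, a subunit of the amidotransferase that completes glutaminyl-tRNA after EARS2, stood at 14.1 ± 0.925 CPM in knockdown and 23.2 ± 1.31 CPM in control libraries (-0.71, adjusted p = 0.00125), while its partners QRSL1 (-0.20) and GATC (-0.24) were not called. The groups did not overlap for either partner. Without both libraries that stood apart, QRSL1 and GATC were called lower (edgeR adjusted p = 0.00271 and 0.00381). GATC was also called lower without knockdown replicate 2 (adjusted p = 0.0249). The tRNA-modifying enzymes TRMU (-0.52) and PUS1 (-0.77) also fell. The length and GC correction gave -0.52 for TUFM, -0.25 for TRMU and -0.50 for PUS1. Without both libraries that stood apart, 9 accessories were lower and 2 higher. MTFMT (-0.31) and GTPBP3 (-0.40), also among the 8 that fell, were each called in only 1 of the 6 fits that left out a library.

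Of 15 tested cytosolic tRNA delivery and maturation genes, 8 fell and 2 rose, with a median of -0.41, and EEF1G was listed at 0 in all libraries. ELAC2, which trims the 3′ ends of tRNA precursors, stood at 114 ± 5.09 CPM in knockdown and 206 ± 5.16 CPM in control libraries (log2 fold change -0.85, edgeR adjusted p = 0.000161). RPP40 (-0.77) and POP1 (-0.41), subunits of ribonuclease P, and the tRNA ligase RTCB (-0.50) also fell. Of 7 tested proofreading and tRNA hydrolysis genes, 2 fell and 1 rose (median -0.44), namely GTPBP1 (-0.62, or -0.40 after the length and GC correction), the D-aminoacyl-tRNA deacylase DTD2 (-0.70) and NEMF (1.49), a factor of stalled ribosomes whose call needed control replicate 2 (adjusted p = 0.0698 without it), control replicate 3 (0.0656) and knockdown replicate 2 (0.0594). Of 6 selenocysteine charging genes, 2 rose and 1 fell (median 0.02). PSTK changed by -0.55, and lost its call in the fit that omits control replicate 3 (adjusted p = 0.0643). SECISBP2 (0.41) was called in 1 of the 6 fits that left out a library, without knockdown replicate 3, and SEPSECS (0.75) in 2, without control replicate 1 or knockdown replicate 2, with adjusted p up to 0.132 and 0.154, and the length and GC correction gave 0.085 and 0.31.

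Of 18 genes of uncharged tRNA sensing and the amino acid response, 8 rose and 5 fell, with a median of 0.33. The list had been chosen with results of these samples in view, so its direction is no independent evidence. ATF4 stood at 264 ± 17.6 CPM in knockdown and 233 ± 23.7 CPM in control libraries without a call (log2 fold change 0.18, edgeR adjusted p = 0.184). Without both libraries that stood apart it was called higher, at 0.16 (adjusted p = 0.000212), and the length and GC correction gave 0.51. The cystine transporter SLC7A11 (1.52), the glutathione-degrading enzyme CHAC1 (1.33) and the stress factor DDIT3 (1.69) rose, and the leucine transporter SLC7A5 (-0.83, or -0.50 after the length and GC correction) fell. PSAT1, which rose, lost its call without any control replicate and without knockdown replicate 1 or 3 (edgeR adjusted p from 0.0699 to 0.114). EIF2S1, which fell, lost its call without control replicate 2 (adjusted p = 0.0513) or 3 (0.0607). Of 9 tested interferon gamma response genes, 6 rose and 0 fell in edgeR (also 0 lower at an unadjusted p below 0.05, in DESeq2 and in limma), with a median of 0.65. HLA-E, which rose, lost its call without any control replicate and without knockdown replicate 1 or 3 (edgeR adjusted p from 0.0889 to 0.134). The risers included TAP1, a peptide transporter, at 33.3 ± 1.03 CPM in knockdown and 18.4 ± 2.79 CPM in control libraries (0.85, edgeR adjusted p = 0.00115), the immunoproteasome subunit PSMB9 (2.83) and the transcription factor IRF1 (1.02). WARS1 was not called beside them.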

How the data were processed

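Read counts per gene came from 6 RNA-seq libraries of PANC-1 cells, 3 per group, grouped by their titles. Per the labels' protocols, TRIzol was used for total RNA and a NEBNext Ultra II kit for the libraries. The sources used here name no aligner, counting tool, build, annotation or strand setting. The authors deposited whole-number counts for 20036 genes and FPKM values, per the file headers. Those counts, gene lengths and column totals give each deposited FPKM value back (relative tolerance 1e-06), so FPKM carries no further normalization. Columns of other samples numbered 0.

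Counts were filtered with filterByExpr (12292 genes left), scaled with TMM and tested with edgeR 4.0.16 in R 4.3.3 by the quasi-likelihood test without covariates. P-values were adjusted over all tested genes by Benjamini-Hochberg, and genes below 0.05 are called higher or lower. The biological coefficient of variation was 14.2%. On simulated counts for this comparison (11923 genes past the filter), 28.8% of genes changed 1.5-fold, 66.7% changed 2-fold and 100% changed 4-fold were recovered, and 6 of 135 calls were false. A smooth fit on gene length and GC (mgcv 1.9.3, 12274 genes) took up 9.42% of the variance in log2 fold changes and gave corrected values, which enter no call. Exon overlaps were counted in GENCODE 29. Promoter sequences and their positions are from RefSeq (GRCh38.p14), and other coordinates are as the deposited table gives them.

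Members and gene lists were chosen with earlier results of these data known. Members are named, apart from 2 that enter the counts and medians but are not reported here singly, with counts per library for called members with a log2 fold change of at least 0.5 in size and for GARS1, KARS1, EPRS1, QARS1, WARS1 and the scaffolds. Up to 4 called genes per further list are named by adjusted p, and ATF4 in any case. Other genes without a call are named where they complete a complex. MTFMT, GTPBP3, PSAT1, EIF2S1 and HLA-E are named because their calls depended on single libraries. Alternatives were library totals, DESeq2 size factors and upper-quartile factors as scaling, other filters, DESeq2 1.42.0, limma 3.58.1 on log2(FPKM + 1), the replicate number as a block, the length and GC correction, and each library left out. A fit without knockdown replicate 2 and control replicate 1 together, and FPKM with GENCODE exon bases as gene length, were chosen after seeing the data.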

Additional observations from a re-analysis of the deposited data

How the results depend on the processing

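Of the 22 called members, the same 22 were called with DESeq2 size factors, with upper-quartile factors and in DESeq2. With library totals alone and with limma on log2(FPKM + 1), 19 were called, without MARS2, RARS1 and WARS2. With no filter 21 were called, without RARS1, and with at least 1 CPM in 3 libraries 23, with TARS2 added. Left-out libraries gave 16 to 24 calls. Without both libraries that stood apart, the 9 added calls were AIMP1, IARS1, LARS1, NARS2 and VARS2 (higher) and TARS2, TARS3, WARS1 and YARS2 (lower). Mitochondrial genes called higher numbered 1 to 2 when a library was left out (2 without control replicate 1) and 3 without both libraries that stood apart, where members called higher numbered 11. The cytosolic median was 0.0209 with library totals alone, 0.0123 with limma and -0.24 after the length and GC correction. EEF1E1, never called, had positive log2 fold changes of 0.0194 with library totals alone and 0.0244 without both libraries that stood apart, and ranged from -0.29 to 0.21 with a library left out. Deviations of same-numbered libraries correlated at -0.36, -0.34 and 0.37, and those of knockdown replicate 2 and control replicate 1 at 0.49. Because these 2 libraries stood apart from their groups, the correlations cannot settle whether replicate numbers pair the samples. With the replicate number as a block, 19 members were called, without GARS1 (adjusted p = 0.0675), MARS2 and RARS1. The pairs without overlap numbered 14 with either 0 or 2 CPM added to each gene before the ratio. With libraries left out they numbered 14 to 16. Removing a library cannot make separate groups overlap, so this count could not fall and does not test stability. SHMT2 stayed called under the alternatives run. With GENCODE exon bases as length, chosen after seeing the data, HARS1 lay at 1.55 times and IARS1 at 0.945 times the level of the mitochondrial partner in control libraries, and IARS1 at 1.17 times in knockdown libraries. The length and GC correction used the deposited lengths. These were over 1.5 times the exon bases for AIMP1, HARS1, FARSB, LARS1, IARS1, AARS1, GARS1, LARS2, RARS2 and NARS2, so their corrected values are uncertain. Low counts limit VARS2, SARS2 and EEF1E1. In simulated counts 28.8% of 1.5-fold and 66.7% of 2-fold changes were recovered, so changes of either size were missed there. Only 66 tested genes per fold size changed in them, while 51.8% of tested genes were called in the real counts. The recovered shares therefore do not give the sensitivity of this comparison, and changes of either size may still be missed.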
